A study of Mus musculus with 6 samples.

Results

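Nrp1, Nrp2, Sema4a, Sema4b, Sema4c, Sema4d, Sema7a, Plxnd1 and Plxnc1 encode neuropilin co-receptors, semaphorin ligands and plexin receptors. They are 9 of the 27376 gene names on the array, and every probe that its annotation names for them was taken. This gave 14 of 41174 probes, all 14 of which were among the 22281 probes tested. RNA was measured on 6 one-colour Agilent arrays, 1 for each of 3 miR-31fl/fl CD4Cre mice (cKO) and 3 age-matched control mice, which the study describes as miR-31fl/fl without Cre. Animals were 6 weeks old, on a C57BL/6 background. Splenic naive T cells (CD4+, CD25-, Foxp3gfp-, CD62L high) of either genotype were cultured for 4 days in wells coated with anti-CD3 (5 μg/ml), in medium holding anti-CD28 (2 μg/ml), TGF-β1 (5 ng/ml) and IL-2 (40 ng/ml). These conditions induce Foxp3, the transcription factor of regulatory T cells, and the product is called an induced regulatory T (iTreg) cell. CD4Cre is active from the thymus onwards, so it acts on the floxed miR-31 allele in CD8+ as well as CD4+ T cells, and Cre itself was present only in the cKO group. There were 0 probes named for miR-31, so the deletion was not checked here. No sort after culture is described, and in such bulk RNA fewer cells of a type and less RNA per cell cannot be told apart.

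Semaphorins are secreted or membrane-bound guidance proteins that signal through plexins, whose cytoplasmic part carries a GTPase-activating domain for Ras-family proteins. Neuropilins have short cytoplasmic tails and act as co-receptors: with plexins they bind class 3 semaphorins, and they also bind members of the VEGF family. In T cells, Nrp1 is known as a surface protein of thymus-derived regulatory T cells, where it can bind Sema4a, and its expression in T cells responds to TGF-β.

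The microRNA removed by the allele is shown first, since the genotype comparison rests on it. The RefSeq mature sequences (GRCm38.p6, chromosome 4, minus strand, bases 88910614 to 88910635 for the 5p arm and 88910577 to 88910599 for the 3p arm) are written 5′ to 3′ with the seed, bases 2 to 8, in capitals.
mmu-miR-31-5p: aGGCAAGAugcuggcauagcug
mmu-miR-31-3p: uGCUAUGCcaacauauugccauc
The DNA letters complementary to the 5p seed, TCTTGCC, were found in 0 of the 14 member probes and in 133 of all 41174 probes (0.323%), searched in the probe's own orientation. That describes only the 60 bases of each probe, not the transcripts. Both Nrp1 probes designed on the RefSeq transcript NM_008737 are shown because they lie far apart in it, beginning at bases 3194 and 1795, and returned nearly equal genotype differences. The dimmer Plxnc1 probe, which begins at base 4429 of NM_018797, is shown because it and the brighter Plxnc1 probe had differences of opposite sign, which the test of that gap given below did not tell apart. These array sequences are in lower case throughout, since no part of them is singled out, and each can be read without a stop codon in at least 1 of its 3 frames.
Nrp1, chr8:131026650-131026709 (mm9, plus strand): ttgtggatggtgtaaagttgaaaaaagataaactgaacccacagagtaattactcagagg
Nrp1, chr8:130992273-130992332 (mm9, plus strand): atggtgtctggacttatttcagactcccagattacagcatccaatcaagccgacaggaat
Plxnc1, chr10:94257387-94257446 (mm9, minus strand): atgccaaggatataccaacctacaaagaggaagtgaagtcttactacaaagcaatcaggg

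Levels are given as log2 of the background-subtracted signal relative to the 75th percentile of the same array, which lay between 987 and 1148 on the linear scale; because probes bind with different strength, levels are compared only within a probe. Between 49.3% and 57.7% of probes were well above background on each array. The cKO arrays 1 to 3 and control array 1 were on slide 1, and control arrays 2 and 3 were on slide 2, so that a comparison within one slide has only control 1 on its control side. Correlations across probes were 0.974 to 0.985 within cKO, 0.984 to 0.989 within control and 0.948 to 0.984 between the groups. All 7 T cell markers and all 8 regulatory T cell markers, Foxp3 among them, were well above background on all 6 arrays. In limma, 54 of the 22281 tested probes (0.242%) passed an adjusted p of 0.05, and 5120 (23%) an unadjusted p of 0.05.

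Both neuropilins were lower in cKO iTreg cells, Nrp1 by 1.70- to 1.76-fold at its 3 probes and Nrp2 by 4.22-fold at its single probe, while Sema4a was 1.92-fold higher. None of these differences passed the adjusted threshold in limma. Over all members, limma gave an adjusted p under 0.05 at 0 of 14 probes (background 0.242%), and 7 of 14 probes, from 5 of the 9 genes, had an unadjusted p under 0.05 (background 23%). Of these 7, 2 were higher in cKO (background 11.5%) and 5 were lower (background 11.4%). The lower ones were all 3 Nrp1 probes, the Nrp2 probe and the dimmer Sema4d probe, so Nrp1 is counted more than once. The lowest adjusted p was 0.129 and the highest 0.881.

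Nrp1, the co-receptor used as a surface marker of thymus-derived regulatory T cells, had 3 probes. The brightest was designed on the cDNA AK040447 (chr8:130884009-130884068, mm9), not on NM_008737 like the others, and each of its 3 frames held a stop codon. Its levels were −0.26, −0.79 and −1.23 on cKO arrays 1 to 3 and −0.50, 0.28 and 0.24 on control arrays 1 to 3. Control 1 lay inside the cKO range, so the groups overlapped there. The means were −0.76 ± 0.49 and 0.01 ± 0.44 (SD, n = 3 each). The log2 difference was −0.77 with a limma standard error of 0.32 and an adjusted p of 0.217. The probe at chr8:131026650-131026709 had −0.44, −0.68 and −1.41 in cKO and −0.34, 0.01 and 0.24 in control. Here the groups did not overlap, with cKO lower throughout, although cKO 1 and control 1 were close. Its log2 difference was −0.81 ± 0.28 (SE, limma), with an adjusted p of 0.186. The dimmest probe, at chr8:130992273-130992332, had −1.18, −0.98 and −1.65 in cKO and −0.77, −0.39 and −0.28 in control, again with no overlap. Its log2 difference was −0.79 ± 0.22 (SE, limma), with an adjusted p of 0.146.

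The 3 Nrp1 probes followed each other from array to array, with Pearson correlations of 0.893 to 0.956 over the 6 arrays, which share RNA, labelling and hybridisation. The gap between any pair of them changed by −0.02 to 0.04 log2 units between the genotypes, with exact permutation p values of 0.9 to 1 and a p of 1 for all of them after adjustment over the 6 within-gene probe pairs compared here; 3 arrays against 3 cannot give a p below 0.1. Within slide 1, the cKO mean lay below control 1 by less than the pooled difference at every Nrp1 probe: the values were −0.27, −0.51 and −0.50. Without cKO 3, the lowest cKO array at each of these probes, the differences were −0.53, −0.53 and −0.60.

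Nrp2, the related co-receptor best known for lymphatic endothelium and class 3 semaphorins, had the largest difference of the 14 probes. Its probe, beginning at base 6601 of NM_001077403 (chr1:62865129-62865188, mm9), had levels of −0.87, −1.78 and −3.46 on cKO arrays 1 to 3 and of −0.18, −0.34 and 0.65 on control arrays 1 to 3. The groups did not overlap, but the cKO arrays were spread widely, and cKO 3 lay far below the other two. The means were −2.03 ± 1.32 in cKO and 0.04 ± 0.53 in control (SD, n = 3 each). The log2 difference was −2.08 ± 0.66 (SE, limma; 95% interval −3.69 to −0.46), with an adjusted p of 0.170. Without cKO 3 it was −1.36, and within slide 1 it was −1.86. A separate probe on a neuropilin-2 variant cDNA (AF022856), which is not named Nrp2 in the annotation, was well above background on 0 of 6 arrays and was not tested. The plot of deviations from the control mean shows Nrp2 below all 3 Nrp1 probes on every cKO array. The Nrp1 probes were furthest apart from each other on cKO 1.

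**Figure D1:**
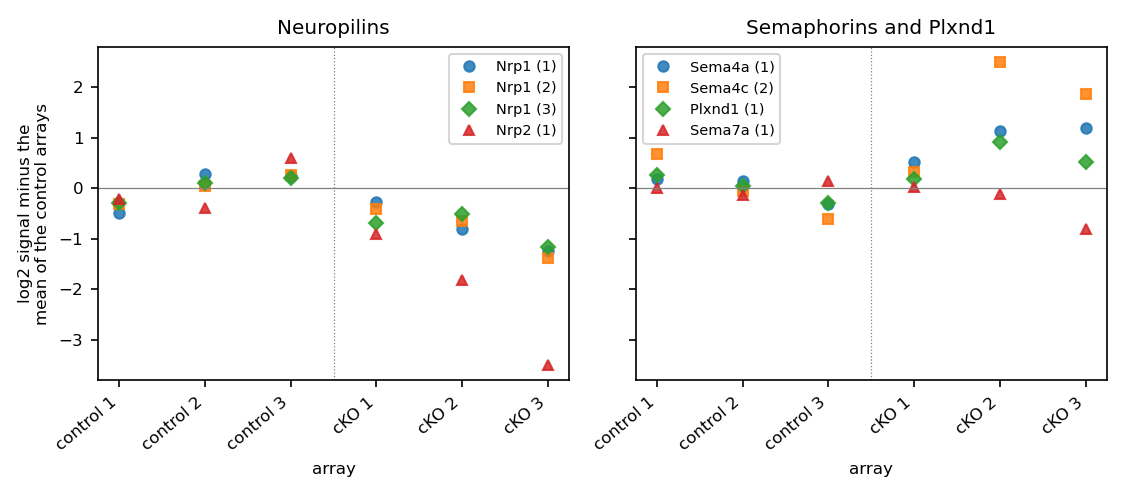
Log2 signal of 8 probes on each array after subtraction of the mean of the 3 control arrays for that probe (y axis, log2 units; x axis, the 6 arrays; the number in brackets ranks a gene's probes by brightness). Nrp2 reached its lowest value on cKO 3, and Sema4a lay above every control array on all 3 cKO arrays.

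Sema4a, a membrane-bound ligand that acts on T cells and can bind Nrp1 and Plxnd1, was the member with the smallest p. Its probe (NM_013658, chr3:88240065-88240123, mm9, minus strand) had levels of 1.91, 2.51 and 2.58 on cKO arrays 1 to 3 and of 1.57, 1.53 and 1.07 on control arrays 1 to 3. Every cKO array was above every control array. The means were 2.33 ± 0.37 and 1.39 ± 0.28 (SD, n = 3 each). The log2 difference was 0.94 ± 0.23 (SE, limma; 95% interval 0.38 to 1.51), with an unadjusted p of 0.00621 and an adjusted p of 0.129. Within slide 1 it was 0.76, and it ranged from 0.78 to 1.15 when each array was left out in turn.

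Sema4b, a class 4 semaphorin, was dim. Its probe (NM_013659) was well above background on 1 cKO and 2 control arrays, with levels of −4.75 to −4.46 in cKO and −4.48 to −4.07 in control. The groups overlapped, and the log2 difference of −0.33 had an adjusted p of 0.231 in limma. Within slide 1 it was −0.53.

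Sema4c, a ligand of B-type plexins, had 2 probes on NM_001126047 that gave unequal differences. The brighter, beginning at base 2711, had levels of −2.003, −1.59 and −1.90 in cKO and −2.32, −1.84 and −2.13 in control, and these ranges overlapped. Its log2 difference of 0.26 ± 0.17 (SE, limma) had an adjusted p of 0.376; it was 0.14 without cKO 2, 0.15 without control 1 and 0.49 within slide 1. The dimmer, beginning at base 3169, had −3.18, −0.998 and −1.63 in cKO and −2.82, −3.55 and −4.10 in control. On this probe cKO 2 and cKO 3 were above all controls, while cKO 1 lay among them. Its log2 difference was 1.56 ± 0.61 (SE, limma; 95% interval 0.08 to 3.03), with an adjusted p of 0.207, and it was 0.88 within slide 1. The gap between the probes changed by −1.29 log2 units between the genotypes (exact permutation p = 0.2, adjusted over the 6 probe pairs 0.4). This test cannot give a p below 0.1 with 3 arrays against 3, so it does not decide whether the probes differ.

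Sema4d (CD100), a semaphorin carried on resting and activated T cells that binds Plxnb1 and CD72, also had 2 probes, both on NM_013660. The brighter, beginning at base 3032, had 0.95, 1.07 and 0.91 in cKO and 0.99, 1.00 and 0.86 in control. The ranges overlapped and the log2 difference was 0.03, with a 95% limma interval of −0.22 to 0.28. The other, beginning at base 3746, had −0.82, −1.11 and −0.79 in cKO and −0.63, −0.40 and −0.64 in control, with cKO lower and no overlap. Its log2 difference was −0.35 ± 0.14 (SE, limma) and its adjusted p 0.207. The probes' gap was 1.88 ± 0.25 in cKO and 1.51 ± 0.11 in control (SD, n = 3 each), a change of 0.38 log2 units. Its exact permutation p was 0.1, the smallest that 3 arrays against 3 can give, and 0.3 adjusted over the probe pairs. The test therefore could not pass and leaves the unequal differences undecided.

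Sema7a, a GPI-anchored semaphorin of activated T cells that signals through integrin β1 and also binds Plxnc1, had levels of 4.71, 4.57 and 3.89 in cKO and 4.70, 4.56 and 4.83 in control (NM_011352). Arrays cKO 1 and cKO 2 were inside the control range, and cKO 3 alone was below it. The log2 difference was −0.30 ± 0.23 (SE, limma), with a 95% interval of −0.86 to 0.25 and an adjusted p of 0.434. Without cKO 3 it was −0.05, and without cKO 1 it was −0.46.

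Plxnd1, a plexin receptor for class 3 semaphorins and Sema4a that takes part in thymocyte migration, had levels of −1.16, −0.43 and −0.82 in cKO and −1.08, −1.31 and −1.64 in control (NM_026376). Arrays cKO 2 and cKO 3 were above all controls, and cKO 1 was not. The log2 difference was 0.54 ± 0.23 (SE, limma; 95% interval −0.03 to 1.11), with an adjusted p of 0.228. Within slide 1 it was 0.27, and without cKO 2 it was 0.35.

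Plxnc1, the plexin bound by Sema7a, was measured by a brighter probe beginning at base 6717 of NM_018797 and by the dimmer one printed above. The brighter had −1.55, −1.16 and −0.92 in cKO and −1.22, −1.06 and −1.13 in control. The cKO values spanned the control values on both sides, and the log2 difference was −0.07 with a 95% limma interval of −0.50 to 0.36. The dimmer had −4.08, −3.97 and −3.40 in cKO and −4.10, −4.12 and −4.16 in control. All cKO arrays were above all control arrays by this measure, but cKO 1 and control 1 differed by a few hundredths of a log2 unit, and the probe was well above background on 3 cKO and 2 control arrays. Its log2 difference was 0.31 (adjusted p 0.354, limma), and 0.10 without cKO 3. The gap between the 2 probes was 2.61 ± 0.17 in cKO and 2.99 ± 0.10 in control (SD, n = 3 each), a change of −0.38 log2 units. Its exact permutation p was again 0.1, the smallest possible (0.3 adjusted over the probe pairs), so this test could not pass and leaves the opposite signs undecided.

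**Figure D2:**
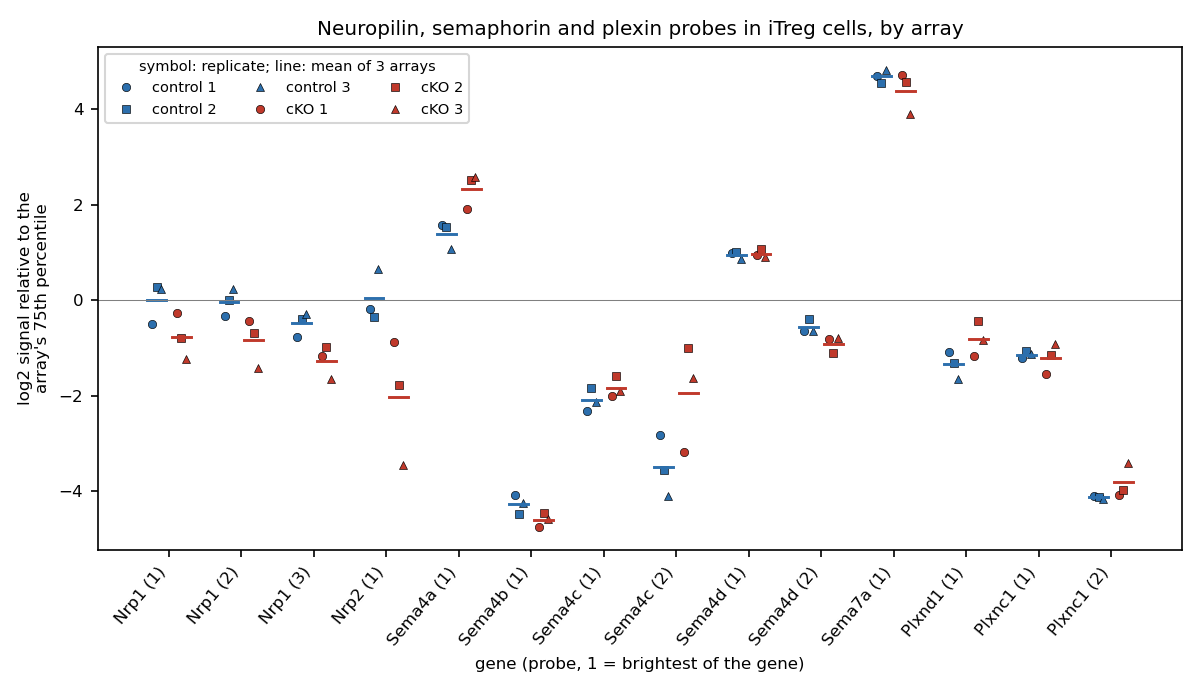
Log2 level (y axis; 0 is the 75th percentile of all signals on that array) for the 14 probes of the 9 genes (x axis, ordered by role and then brightness); blue points are control arrays, red points cKO arrays, the symbol gives the replicate and each line the mean of 3 arrays. Heights are to be read within a probe, and cKO 3 was the lowest of the 6 arrays at 5 probes and the highest at 3. The place of cKO 3 was not counted over all tested probes.

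**Figure D3:**
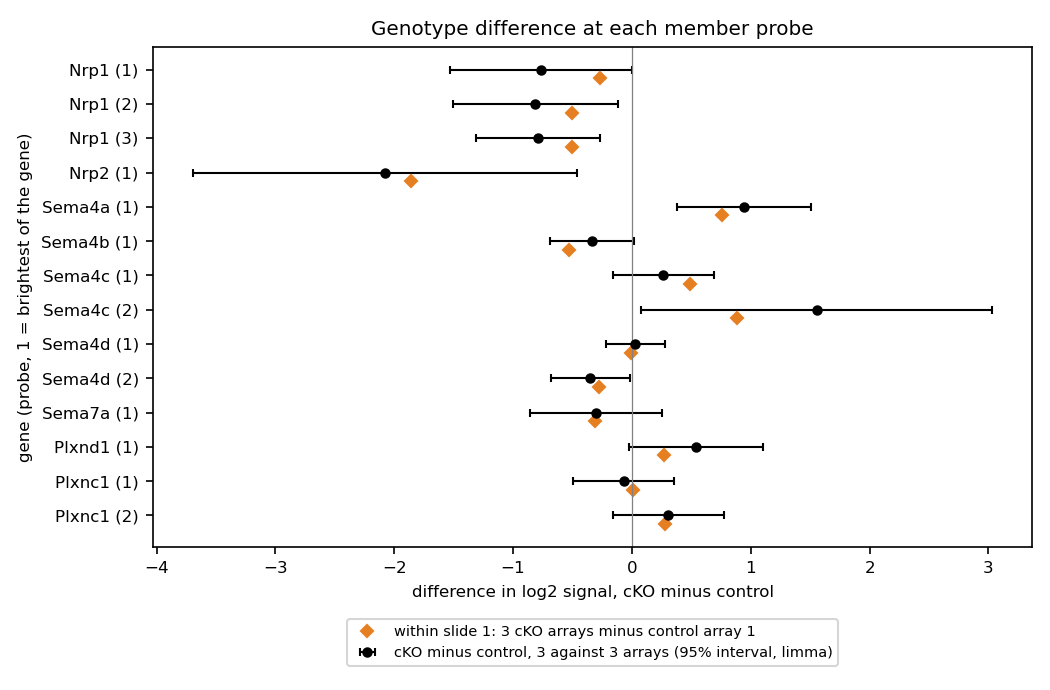
Difference in log2 signal, cKO minus control (x axis), at the 14 probes (y axis), with 95% limma intervals (black) and, as orange diamonds, the mean of the 3 cKO arrays minus control 1, which were on the same slide. The largest differences were −2.08 for Nrp2 and 1.56 for the dimmer Sema4c probe, and the diamonds lay on the same side of 0 as the black points except at the brighter Sema4d and Plxnc1 probes.

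Across the members, 6 probes had a positive and 8 a negative difference, with a median of −0.19 against −0.04 over all tested probes. The median size of the difference, regardless of sign, was 0.44 log2 units against 0.24 over all tested probes, and the median within-group SD was 0.31 against 0.20. Both the differences and the spread among replicates were thus above those of the typical probe. The groups did not overlap at 6 of 14 probes (background 36.6%). Of these, 2 were higher in cKO (background 15.9%) and 4 were lower (background 20.7%). The lower ones were 2 Nrp1 probes, the Nrp2 probe and the dimmer Sema4d probe. Array cKO 3 was the lowest or the highest of the 6 arrays at 8 of 14 probes, and the SD was larger in cKO than in control at 12 of 14. Neither count was made over all tested probes, so neither can be called particular to the members. Of the array weights, estimated over the tested probes together, that of cKO 3 was the lowest (0.173).

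Over the 6 arrays, the brightest Nrp1 probe correlated with Nrp2 at r = 0.89 and with Sema4a at r = −0.88, Nrp2 with Sema4a at r = −0.94 and with Sema7a at r = 0.91, and Sema4a with Plxnd1 at r = 0.91. These points include both genotypes and the same arrays, so the values describe the shared order of 6 arrays and were not tested. The brightest Nrp1 probe is the one designed on a separate cDNA, whose groups overlapped. Neither these correlations nor the search that follows was repeated with the other Nrp1 probes. Among 11119 named genes whose brightest probe was well above background on all arrays, the patterns most like that of this brightest Nrp1 probe were those of 1700020I14Rik (r = 0.994), Setdb1 (r = 0.990), Barhl1 (r = 0.987), Dab2 (r = 0.986) and Ckap2l (r = 0.985). Of these, Dab2, an endocytic adaptor, had a log2 difference of −1.58, and the other four had differences between −0.45 and −0.14.

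The wider pathway was followed through 59 further genes in 4 lists, of which 41 had a tested probe. At the brightest tested probe, 24 were higher and 17 lower in cKO. Of the 41, 7 were higher (background 11.5%) and 3 were lower (background 11.4%) with an unadjusted p under 0.05, and 0 passed the adjusted threshold in limma (background 0.242%). The median log2 difference was 0.05, against −0.04 over all tested probes.

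Among other semaphorins, 6 of 15 were tested, and Sema3b was the only class 3 semaphorin, the secreted ligands of the neuropilins, among them. The largest differences were at transmembrane semaphorins. Sema6b had levels of −1.73, −2.89 and −3.13 in cKO and −4.59, −4.17 and −4.59 in control, a log2 difference of 1.87, and was well above background on 1 control array. Sema6d had 0.08, 0.02 and 0.05 in cKO and −0.13, −0.82 and −1.72 in control, a difference of 0.94 that was 0.53 without control 3 and 0.18 within slide 1. Sema4f had 0.12, 0.03 and 0.68 in cKO and −0.38, −0.49 and −0.89 in control, a difference of 0.86. In all 3 every cKO array was above every control array, and the unadjusted but not the adjusted p was under 0.05 in limma.

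Among other plexins, 3 of 7 were tested. Plxna3, an A-type plexin that pairs with neuropilins, had −2.67, −1.77 and −1.44 in cKO and −3.40, −3.17 and −3.54 in control, with no overlap and a log2 difference of 1.41. Plxnb2 differed by 0.27 (0.41 within slide 1) and Plxna1 by −0.22 (−0.0083 within slide 1). Only Plxna3 had an unadjusted p under 0.05 in limma.

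Among other receptors and ligands, 9 of 13 were tested. Vegfa, a neuropilin ligand as well as an angiogenic factor, had 2.63, 3.16 and 3.36 in cKO and 2.48, 2.47 and 2.00 in control, with no overlap and a log2 difference of 0.73. Pgf, a VEGF-family ligand, differed by −0.93, with overlapping groups, and by −0.59 without control 3 and −0.25 within slide 1. Cd72, a receptor of Sema4d, differed by 0.57, also with overlap, and by 0.20 without cKO 3, 0.85 without cKO 1 and 0.32 within slide 1. Vegfb, named after its values were seen, differed by 0.52, with an unadjusted p under 0.05 like Vegfa.

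Of 24 intracellular partners, 23 were tested, and 12 were higher and 11 lower. Rras, a small GTPase inactivated by plexins, had levels of 2.58, 2.75 and 3.09 in cKO and 1.58, 1.61 and 1.26 in control. Its groups were well apart, with a log2 difference of 1.33 and the smallest adjusted p of the 41 tested genes, 0.066 in limma. Fes, a tyrosine kinase acting downstream of plexins, had 2.15, 2.24 and 1.83 in cKO and 2.62, 2.66 and 3.21 in control, a difference of −0.75. Mical2, an actin-oxidising enzyme of the family that binds plexins, had −1.95, −2.89 and −3.22 in cKO and −1.67, −1.93 and −0.55 in control, a difference of −1.31. Every cKO array was below every control array at both, as it was at the related Mical3 (−0.58, named after its values were seen). These 3 lower genes had an unadjusted p under 0.05.

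**Figure D4:**
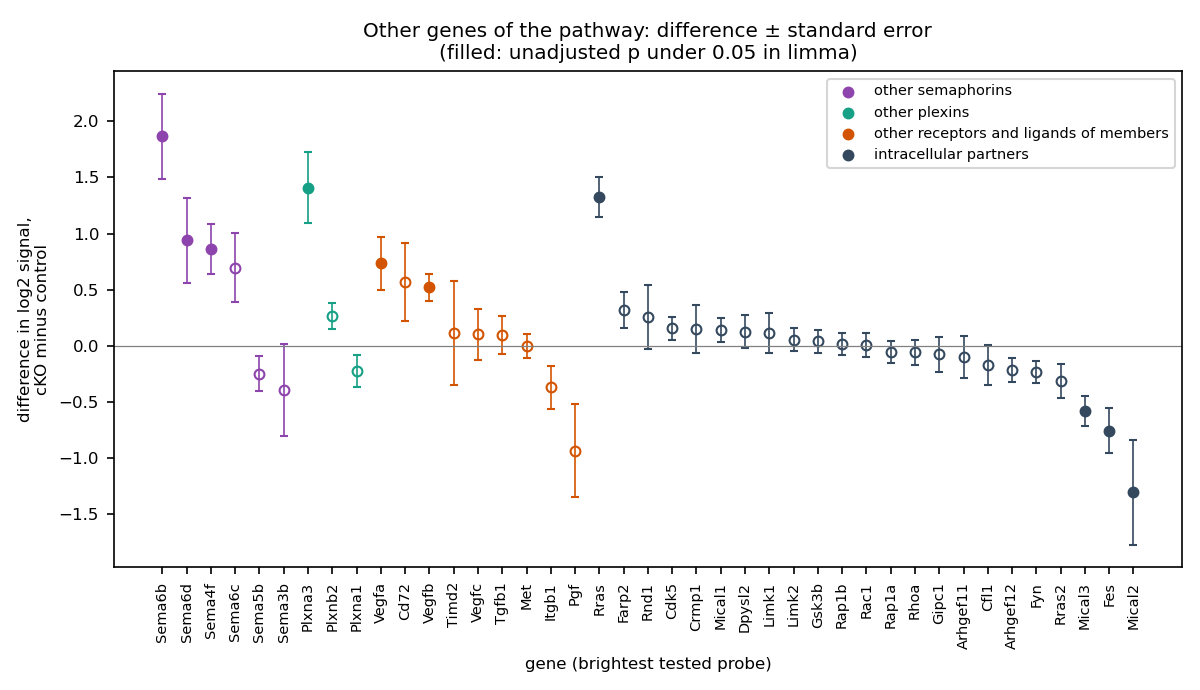
Difference in log2 signal, cKO minus control, with its limma standard error (y axis) for the 41 tested genes of the wider pathway (x axis), coloured by list and ordered by size within each; filled points had an unadjusted p under 0.05. The filled points number 7 above 0 and 3 below, and Sema6b (1.87), Plxna3 (1.41) and Rras (1.33) were the highest.

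Markers of other cells that can carry these proteins were summed per array in linear units relative to the 75th percentile. Endothelial markers, which matter for Nrp1, Nrp2 and Plxnd1, summed to 0.691 to 0.745 in cKO and 0.689 to 0.842 in control, and 4 of the 6 were well above background on no array. Plasmacytoid dendritic markers, relevant to Nrp1, summed to 7.81 to 11.8 in cKO and 6.66 to 9.40 in control; 2 of 5 were well above background on all arrays, and Siglech was so on none. NK markers summed to 0.0703 to 0.0723 in cKO and 0.0446 to 0.115 in control, and none of the 3 was tested. Myeloid markers summed to 2.34 to 3.97 in cKO and 2.71 to 3.41 in control. Single genes made up most of the endothelial (Pecam1), plasmacytoid dendritic (Bst2) and myeloid (Mpeg1) sums, so these sums mainly follow those genes. Each of the genes overlapped between the groups. The B cell range was 0.762 to 1.5 in cKO and 1.41 to 1.80 in control. Of its 2 tested markers, Pou2af1 was lower in cKO without overlap (log2 difference −2.17, adjusted p 0.048, limma). The other, Cd79b, differed by 0.60 with overlap (adjusted p 0.334, limma). The CD8 T cell sum was lower in cKO without overlap, 3.87 to 4.34 against 4.42 to 5.61, and both markers of that list were well above background throughout, although each of them alone overlapped between the groups. The erythroid sum (0.480 to 1.05 against 0.195 to 0.381) and the epithelial sum (1.30 to 1.95 against 0.805 to 0.901) were higher in cKO without overlap. The regulatory T cell markers summed to 189 to 211 in cKO and 163 to 202 in control, and the T cell markers to 261 to 310 and 264 to 281. Among T cell markers, Cd3e was lower in cKO (−0.28) and Cd3g (0.74) and Cd4 (0.66) were higher, all without overlap. Their adjusted p values were 0.171 to 0.177 in limma, and the rest of that list overlapped. Tnfrsf18, the brightest of the regulatory T cell list, makes up most of its sum, and single markers differed in both directions. Gpr83, a receptor enriched in regulatory T cells, had levels of 2.77, 2.52 and 1.43 in cKO and 4.03, 4.26 and 4.44 in control, with no overlap and a log2 difference of −2.004 (adjusted p 0.090, limma). Foxp3 differed by −0.62 without overlap (adjusted p 0.192) and Il2ra by −0.56 with overlap, while Ctla4 differed by 0.94 without overlap (adjusted p 0.135) and Itgae by 0.85 with overlap. The part of these markers in the differences of the 9 genes was not tested.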

How the data were processed

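Per the labels, RNA was purified with a miRNeasy kit, and 0.5 μg was labelled with Cy3; the study's methods text gives another IL-2 dose than the labels. The authors extracted the spots with Agilent Feature Extraction (10.7.3.1 in the file headers, 9.1 in the submitters' processing notes). The deposited signals are linear intensity values, background-subtracted and detrended but not normalized between arrays. The authors also deposited a table of log2 values (column medians of 6.15), whose normalization is not given in the sources used here; it correlated with the array signals at 0.998 or more and was used as an alternative. All of its columns were matched to samples (0 unassigned).

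Control spots and outlier spots were dropped, spots of a probe were averaged, and log2 signals were set relative to each array's 75th percentile. Fitted were all probes that the software marked well above background on 3 or more of the 6 arrays, with limma 3.58.1 in R 4.3.3 (lmFit, eBayes, cKO against control, Benjamini-Hochberg over all 22281 tested probes, threshold 0.05). The number of arrays, 3 per group, limits the precision; each array came from a separate mouse. The array's own annotation supplied gene names and mm9 positions. Named were all member probes, the 3 largest differences of each pathway list, and the 5 genes most correlated with the brightest Nrp1 probe. The members and lists were chosen with earlier results of these data known. The alternatives were other normalizations and filters, the methods' t-test, array weights, the slide or the replicate number as a term, and leaving out each array. The fitting code was run on simulated data with independent noise and added shifts larger than most member differences. That run does not describe how well differences of the members' size are found.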

Additional observations from a re-analysis of the deposited data

How the results depend on the processing

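Of 474 values recomputed under an alternative, 454 kept their direction and their side of the threshold, 9 newly passed it and 11 changed sign. Much of this was fixed in advance. The filters, the t-test, trend and robust fitting and the replicate block leave a probe's difference unchanged by construction. Where no probe on the whole array passed the adjusted threshold, no value could newly pass it. At every alternative the Nrp1 probes stayed lower in cKO (−1.02 to −0.27, −1.02 to −0.51 and −0.93 to −0.42, brightest first), as did Nrp2 (−2.66 to −1.06), and Sema4a stayed higher (0.73 to 1.15). The cause of the changes below was not tested.

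Over all tested probes, 54 passed the adjusted threshold in limma. That count was 112 after normexp with quantile normalization, 0 after normexp with the 75th percentile, 26 after quantile normalization, 28 in the authors' table, 0 without a filter on dim probes, 174 with all 6 arrays required, 0 with the methods' t-test, 108 with trend and robust fitting, 2205 with array weights, 0 with the slide as a term, and 0 to 1 when an array was left out. Member probes passing were 0 in limma (7 unadjusted) and 0 whichever array was left out. With array weights, 2 of 14 passed, against 2205 of all 22281 tested probes. They were Sema4a (0.89, adjusted p 0.040) and the lower Sema4d probe (−0.55, adjusted p 0.049). The weights were 0.173 for cKO 3 and 5.05 for control 2. Member probes with an unadjusted p under 0.05, 7 in limma, were 4 after normexp with the 75th percentile (7.45% of all tested probes), 2 by the methods' t-test (18.0%), 1 (Sema4b) with the slide as a term (7.39%), and 2 to 7 with an array left out (12.9% to 29.0%): 4 without cKO 2 (19.6%) or without control 2 (13.8%), and 2 without control 3 (12.9%). Of the 41 tested pathway genes, 10 had an unadjusted p under 0.05 in limma (23% of all tested probes). That count was 5 after normexp with the 75th percentile (7.45% of all tested probes), 18 with array weights (34.0%) and 6 with the slide as a term (7.39%). Rras passed the adjusted threshold under 5 alternatives.

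Normexp with the 75th percentile moved the median difference of all probes from −0.04 to 0.11, and under it Sema4b was 0.66, the brighter Sema4d probe −0.0050, the brighter Plxnc1 probe 0.059 and Pgf 0.022. The brighter Sema4d probe was also −0.0085 with the slide as a term and −0.16 as a mean over probes, and ranged from −0.017 (without cKO 2) to 0.059 with an array left out, being −0.016 without control 3. The brighter Plxnc1 probe was 0.013 with the slide as a term and 0.12 as a mean over probes, and ranged from −0.21 to 0.10 (without cKO 1) with an array left out.

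The labels number replicates 1 to 3 in each group, but deviations of same-numbered arrays correlated at −0.14, 0.01 and −0.19, so the numbers were not taken as pairs. With the replicate number as a block, 0 probes passed the adjusted threshold, 0 of them members, and 3 of 14 member and 9 of 41 pathway probes had an unadjusted p under 0.05, against 16.3% of all tested probes.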
